A study of Mus musculus with 39 samples.

Results

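A group of 10 enzyme genes of glycolysis and lactate metabolism, Hk1, Hk2, Gpi1, Pfkl, Pfkp, Pgk1, Pkm, Ldha, Ldhb and Fbp2, were followed in wild-type mouse embryos at the 2-cell and 4-cell stage. They were chosen by name, are 10 of the 55487 gene rows of the deposited count table, and each had a count in at least 1 library. All 10 also passed the filter on low counts that left 14119 genes for testing. The 39 libraries were prepared by Smart-seq2, an oligo-dT and template-switching method for very small RNA amounts, from 1 embryo or 1 blastomere each. There were 5 intact 2-cell embryos, 4 intact 4-cell embryos, 5 separated 2-cell embryos (10 blastomeres) and 5 separated 4-cell embryos (20 blastomeres). All embryos carry the wild-type genotype, and the labels name no strain, treatment or time in culture. The labels put separated 4-cell embryos 6 and 7 in batch 2 and every other embryo in batch 1.

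In glycolysis, hexokinases (Hk1, Hk2) phosphorylate glucose, glucose-phosphate isomerase (Gpi1) converts the product to fructose phosphate, and phosphofructokinases (Pfkl, Pfkp) commit it to the pathway. Phosphoglycerate kinase (Pgk1) and pyruvate kinase (Pkm) form ATP in the lower part, and lactate dehydrogenase, built from A (Ldha) and B (Ldhb) subunits, interconverts pyruvate and lactate. Fbp2 encodes the muscle form of fructose bisphosphatase, which runs the phosphofructokinase step in reverse. Cleavage-stage mouse embryos are known to live on pyruvate and lactate and to use little glucose before compaction, and the mouse egg is known for its large store of the B type of lactate dehydrogenase.

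Blastomeres were added up into their embryo, which served as the replicate, and levels are CPM (counts relative to the library total), scaled by the trimmed mean of M values (TMM). Totals per embryo ran from 7157820 to 9889932 counts in intact 2-cell, 2738239 to 4194075 in intact 4-cell, 14229851 to 56216683 in separated 2-cell, 13041666 to 15810942 in separated 4-cell embryos of batch 1 and 86817534 to 103179638 in those of batch 2. Fewer copies per cell and a smaller share of the RNA cannot be told apart in such data, and separation cannot be told apart from RNA input per library or the number of libraries summed. The labels do not say that embryos came from separate mothers, so p-values measure the spread between these embryos only. The 2-cell markers summed to between 1480 and 3128 CPM in the 2-cell embryos and to between 41.7 and 139 CPM in the 4-cell embryos. The batch 2 embryos stood apart in the maternal oocyte markers, with 4832 to 7124 CPM against 20470 to 34640 CPM in the other 4-cell embryos. Among 12 cumulus and granulosa markers, genes of the cells that surround the egg, the summed level was 4.29 to 44.2 CPM in intact 2-cell and 8.79 to 21.2 CPM in intact 4-cell embryos. It was 1.10 to 45.8 CPM in separated 2-cell embryos, 9.98 to 22.5 CPM in separated 4-cell embryos of batch 1 and 49.1 to 61.3 CPM in those of batch 2. Inha and Nr5a1 had no count in any embryo. Of the 12, only Amhr2 (up to 58.4 CPM) and Tnfaip6 (up to 43.8 CPM) exceeded 4.09 CPM in any embryo.

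Ldhb was the dominant transcript of the set at the 2-cell stage, and at the 4-cell stage it shared that place with Fbp2. Per kilobase of transcript, Ldhb stood at 152 ± 66.7 CPM per kb in intact 2-cell embryos (mean ± SD, n = 5), which is 88 percent of the summed level of the 10 genes. Pkm (9.49 ± 5.05) and Pgk1 (7.25 ± 5.53 CPM per kb) came next, and the other 7 genes each averaged below 2 CPM per kb. Only the step from Ldhb to Pkm was free of overlap between embryos. In separated 2-cell embryos Ldhb held 91.9 percent of the summed level per kb.

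In intact 4-cell embryos Ldhb was at 36.6 ± 10.2 and Fbp2 at 25.2 ± 17.9 CPM per kb (n = 4), 44.4 and 30.5 percent of the summed level, and the ranges of these 2 genes overlapped. The remaining 8 genes lay between 0.0491 (Pfkl) and 4.86 CPM per kb (Ldha), each overlapping its neighbour in the order. In separated 4-cell embryos of batch 1 the shares were 45.2 percent for Ldhb and 43.7 percent for Fbp2, and in batch 2 they were 28.1 and 27.4 percent. There was a gap in level without overlap below Fbp2 in both batches.

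Between the 2-cell and the 4-cell stage, Fbp2 rose and Ldhb fell, in intact and in separated embryos alike, while the other 8 genes did not pass the test. In the edgeR quasi-likelihood test with Benjamini-Hochberg adjustment, 1 of the 10 genes was higher and 1 lower in intact embryos, beside 5.41 percent of all tested genes higher and 4.99 percent lower. In separated embryos it was again 1 higher and 1 lower, beside 6.4 and 4.7 percent of all genes. The median log2 fold change of the 10 genes was 0.83 in intact and 0.47 in separated embryos, against -4.61e-05 and -0.15 over all genes tested. With 10 genes, 1 call in each direction is close to what these shares give. The fit has a term for the batch, so the 4-cell level of separated embryos in these tests is the one of batch 1.

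**Figure D1:**
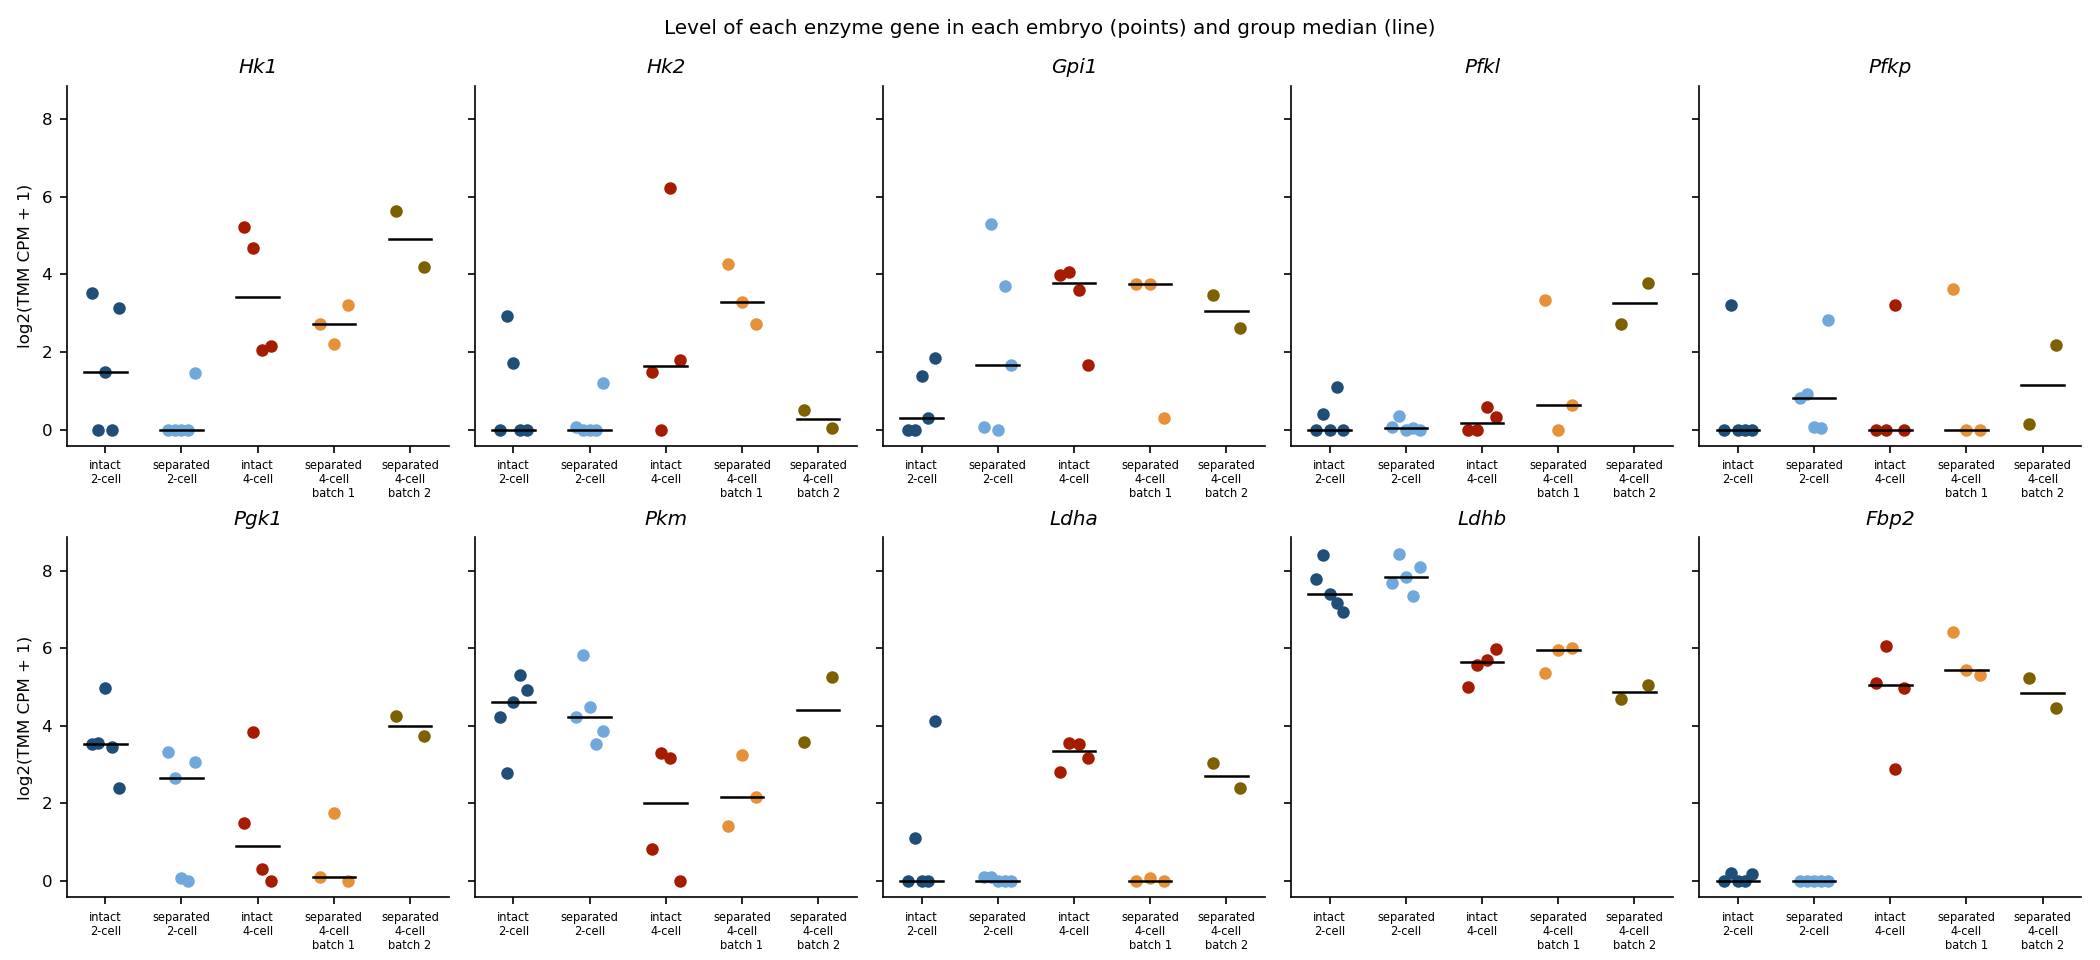
Level of the 10 enzyme genes in each of the 19 embryos (points), as log2(TMM CPM + 1) on the y axis, by group on the x axis, with the median as a line. Ldhb is lower and Fbp2 higher in every 4-cell embryo than in every 2-cell embryo, and Ldha is near 0 in separated 4-cell embryos of batch 1 but not of batch 2.

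Ldhb lies on chr6:142490249-142507957 (GRCm38, minus strand), with 8 exons in its longest coding transcript. It was at 219, 339.6, 169, 142 and 121 CPM in intact 2-cell embryos 1 to 5. The intact 4-cell embryos 1, 3, 4 and 5 had 30.8, 46.1, 51.3 and 62.7 CPM. Every intact 2-cell embryo thus lay above every intact 4-cell embryo. The log2 fold change was −2.05 ± 0.38 (SE, edgeR adjusted p = 0.00185), a fall to 0.255 of the 2-cell level by the pooled counts of 7529 and 710 reads.

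Separated 2-cell embryos 1 to 5 had 205, 345, 229, 161 and 274 CPM of Ldhb. Separated 4-cell embryos 2, 3 and 4 of batch 1 had 40.0, 61.5 and 63.3 CPM, and embryos 6 and 7 of batch 2 had 25.0 and 32.2 CPM. The groups were again free of overlap, and the log2 fold change was −2.14 ± 0.43 (adjusted p = 0.00368). Ldhb had the least spread between embryos of the 10 genes, with a biological coefficient of variation of 0.428 against a median of 1.44 over all genes. That median is not matched for level, and Ldhb was the dominant transcript of the set at the 2-cell stage. The fall in intact embryos did not pass when each blastomere was entered as a library (log2 fold change −2.25, adjusted p = 0.191), while over the 11 settings tried in place of the main one the adjusted p ran from 1.71e-07 to 0.191.

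Fbp2 lies on chr13:62836877-62858422 (GRCm38, minus strand), with 7 exons in its longest coding transcript. Intact 2-cell embryos held 2 Fbp2 counts in all, in 2 of 5 embryos, and no embryo was above 0.164 CPM. Intact 4-cell embryos 1, 3, 4 and 5 had 33.7, 65.5, 6.36 and 30.8 CPM, a total of 458 counts. All 4-cell embryos lay above all 2-cell embryos, and the rise had an edgeR adjusted p of 0.000475. The ratio of pooled counts per scaled library was 619.5, with a 95% counting interval of 170.5 to 5131.

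Separated 2-cell embryos had no Fbp2 count in any of their 10 blastomeres. Separated 4-cell embryos 2, 3 and 4 of batch 1 had 84.4, 42.6 and 38.5 CPM, or 2332 counts, and embryos 6 and 7 of batch 2 had 36.7 and 21.2 CPM. With 3 counts set for the 2-cell group as the most that no count allows, Fbp2 was at least 3102-fold higher in batch 1 4-cell embryos (adjusted p = 0.000106). The reads were amplified and carry no molecular identifiers, so intervals and floors describe counting error alone. The rise of Fbp2 passed with each embryo left out and in all 11 other settings, in intact and in separated embryos.

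The sequences before the starts of these genes are shown because Ldhb and Fbp2 move in opposite directions and Ldha encodes the partner subunit of Ldhb. Each is the 250 bases before the RefSeq start on GRCm38.p6, read 5′ to 3′ on the strand of the gene, and Ldha is shown at the first of its 2 listed starts. Capitals mark CACGTG (an E-box), the GC box GGGCGG or the box CCAAT, on either strand. The windows are Ldhb at chr6:142507958-142508207 on the minus strand, Fbp2 at chr13:62858401-62858650 on the minus strand and Ldha at chr7:46845554-46845803 on the plus strand.
Ldhb: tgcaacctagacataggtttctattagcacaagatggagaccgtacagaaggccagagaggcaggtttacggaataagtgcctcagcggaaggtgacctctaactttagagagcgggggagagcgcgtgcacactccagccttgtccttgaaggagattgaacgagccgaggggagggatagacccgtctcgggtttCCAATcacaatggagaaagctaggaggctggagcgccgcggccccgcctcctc
Fbp2: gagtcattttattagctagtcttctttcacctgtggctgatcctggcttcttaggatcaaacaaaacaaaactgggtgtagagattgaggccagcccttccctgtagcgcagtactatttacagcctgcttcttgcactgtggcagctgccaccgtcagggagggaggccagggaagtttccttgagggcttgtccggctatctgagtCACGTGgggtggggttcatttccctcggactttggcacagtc
Ldha: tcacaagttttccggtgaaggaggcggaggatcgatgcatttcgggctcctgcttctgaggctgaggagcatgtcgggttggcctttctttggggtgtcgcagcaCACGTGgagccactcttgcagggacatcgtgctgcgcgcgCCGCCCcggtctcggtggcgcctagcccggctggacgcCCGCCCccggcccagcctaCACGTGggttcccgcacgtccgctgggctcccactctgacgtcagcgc

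Windows of 300 bases, from 250 before to 50 after the start, were searched on both strands in 13 windows of the 10 genes. The searched letters were CACGTG, the shorter ACGTG that also lies within it, the related GCGTG, then GGGCGG for the GC box, then CCAAT for the CCAAT box, then TATAAA for the TATA box, and AAGGTCA for nuclear receptors. CACGTG was found in Fbp2, once, beginning 42 bases before the start, and in Ldha, at 145 and 48 bases before the start, and in none of the other 8 genes. Of 32851 promoters of the same length, 7.15 percent hold it. Such percentages count single windows, whereas a gene counts if any of its windows holds the letters. Genes with several windows thus have more chances of a match. The Ldhb window holds CCAAT 53 bases before the start, as 5 of the 10 genes hold it in some window, beside 37.41 percent of all promoters. GGGCGG was found in 7 of the 10 genes, among them Ldha but neither Ldhb nor Fbp2, beside 35.66 percent of all promoters. The Fbp2 window has 6 CpG dinucleotides, the Ldhb window 17 and the first Ldha window 30, where the median of all promoters is 7. ACGTG was in 6 of the 10 genes (19.62 percent of all promoters) and GCGTG in 5 (32.39 percent). The letters TATAAA (13.62 percent of all promoters) and those of AAGGTCA (4.718 percent) were in none of the 13 windows.

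**Figure D2:**
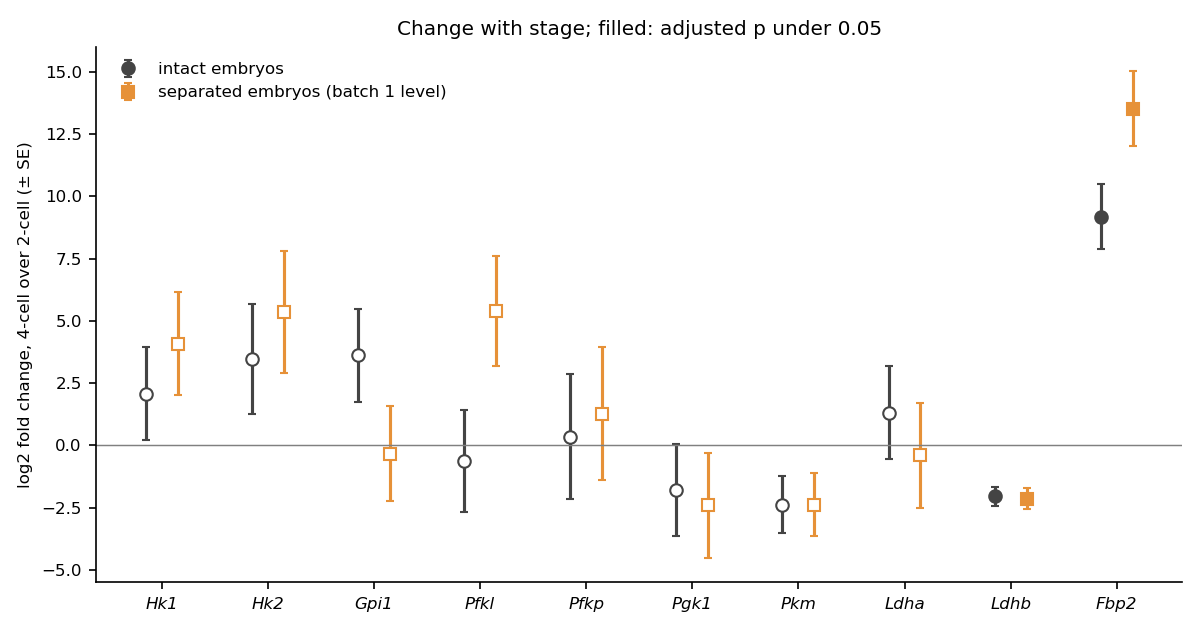
Fitted log2 fold change from the 2-cell to the 4-cell stage (y axis, ± SE) of the 10 genes (x axis) in intact (circles) and separated embryos (squares), with filled symbols where the edgeR adjusted p is under 0.05. Only Ldhb and Fbp2 are filled, and the fitted Fbp2 values rest on 2-cell groups with 2 counts and with none, so their size depends on the fit.

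Of the hexokinase genes, neither passed the test. Hk1 (chr10:62268855-62379908, minus strand) encodes the widely expressed enzyme, and Hk2 (chr6:82725025-82774454, minus strand) the inducible one. Hk1 had 10.4, 0, 1.80, 0 and 7.76 CPM in intact 2-cell embryos and 36.5, 24.6, 3.18 and 3.42 CPM in intact 4-cell embryos (log2 fold change 2.08 ± 1.86, adjusted p = 0.511). The intact groups overlapped, with 2 high and 2 low 4-cell embryos. In separated embryos Hk1 had a count in 1 of 5 2-cell embryos (embryo 5, 1.75 CPM). It was at 5.57, 3.58 and 8.26 CPM in the 4-cell embryos of batch 1 and at 48.6 and 17.2 CPM in those of batch 2.

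The Hk1 difference in separated embryos was 4.08 ± 2.07 on the log2 scale (edgeR adjusted p = 0.203), with groups that did not overlap. Hk2 was at 73.6 CPM in intact 4-cell embryo 4 and at 0 to 2.44 CPM in the other three. Intact 2-cell embryos had 0, 6.58, 2.29, 0 and 0 CPM of Hk2. Leaving out intact 4-cell embryo 4 turned the Hk2 difference in intact embryos from 3.46 ± 2.21 (adjusted p = 0.326) to −0.40. In separated embryos Hk2 was at 0.0508 and 1.28 CPM in 2-cell embryos 1 and 5 and had no count in 3, against 18.2, 8.77 and 5.63 CPM in the 4-cell embryos of batch 1 (log2 fold change 5.37 ± 2.45, adjusted p = 0.158).

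The batch 2 embryos had 0.406 and 0.0372 CPM of Hk2, below all 3 batch 1 embryos, while both had more Hk1 than any of these. The share of Hk1 in the summed level of Hk1 and Hk2 per kb was 28.3, 34.5 and 65.4 percent in the batch 1 embryos and 99.4 and 99.8 percent in the batch 2 embryos. The calls of both hexokinase genes in separated embryos depended on the setting and on separated 2-cell embryo 5. With all embryos, Hk1 passed in 2 of 11 other settings, the replicate block (adjusted p = 0.0433) and each blastomere as a library (0.0496), and Hk2 in 1 of 10, each blastomere as a library (0.0195). Without embryo 5, Hk1 passed (10.16, adjusted p = 0.0147) and Hk2 passed (9.22, adjusted p = 0.0483), where the fitted sizes depend on 2-cell groups with at most 2 counts. By position of the batch 1 embryos, 3 of the 10 genes (Hk1, Hk2 and Fbp2) were higher without overlap in separated 4-cell embryos. The lower ones were 2 (Pkm and Ldhb), beside 11.7 percent of all genes higher and 8.74 percent lower. In intact embryos it was 1 (Fbp2) and 1 (Ldhb), beside 9.87 and 7.1 percent. With batch 2 included, Hk2 and Pkm overlapped in separated embryos. Both batch 2 embryos had less Hk2 than the 1.28 CPM of separated 2-cell embryo 5. Their 10.9 and 37.3 CPM of Pkm lay inside the 2-cell range of 10.6 to 55.8 CPM.

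Gpi1 and the phosphofructokinase genes were low and uneven between embryos. Gpi1 (chr7:34201330-34230336, minus strand) was at 0, 0, 1.60, 0.227 and 2.59 CPM in intact 2-cell embryos and at 14.8, 15.6, 11.0 and 2.20 CPM in intact 4-cell embryos. The difference was 3.61 ± 1.86 on the log2 scale (edgeR adjusted p = 0.21), and 4-cell embryo 5 lay inside the 2-cell range. Gpi1 passed in intact embryos in 1 of 11 other settings, limma voom (4.855, adjusted p = 0.0208). Separated 2-cell embryos had 0.0508, 38.7, 0, 12.1 and 2.16 CPM of Gpi1. The 4-cell embryos had 12.4, 12.4 and 0.231 CPM in batch 1 and 10.1 and 5.18 CPM in batch 2, so the separated groups overlapped (−0.34 ± 1.91, adjusted p = 0.943).

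Pfkl (chr10:77986947-78010083, minus strand), the liver-type phosphofructokinase gene, had at most 1.14 CPM in 2-cell embryos of either kind and at most 0.489 CPM in intact 4-cell embryos. In separated 4-cell embryos it was at 9.12, 0 and 0.540 CPM in batch 1 and at 5.57 and 12.8 CPM in batch 2 (batch 1 against 2-cell 5.41 ± 2.21, adjusted p = 0.119). Pfkp (chr13:6579768-6648777, minus strand), the platelet type, was seen in 1 of 5 intact 2-cell embryos (8.22 CPM) and 1 of 4 intact 4-cell embryos (8.31 CPM). It had a count in 5 of 5 separated 2-cell embryos, at 0.0197 to 6.06 CPM, and in 3 of 5 separated 4-cell embryos, at up to 11.3 CPM. Intact embryos had a count of either phosphofructokinase gene in 4 of 9 cases. Pfkm, the muscle type, had no count in any library.

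The ATP-forming genes Pgk1 and Pkm had lower means at the 4-cell stage in batch 1, without passing the test. Pkm (chr9:59656368-59679375, plus strand) was at 17.7, 5.92, 23.7, 38.5 and 29.5 CPM in intact 2-cell embryos and at 0.777, 8.93, 8.07 and 0 CPM in intact 4-cell embryos. The lowest 2-cell embryo lay among the 4-cell embryos, and the log2 fold change was −2.38 ± 1.14 (adjusted p = 0.177). Separated embryos went from 17.6, 55.8, 21.4, 10.6 and 13.6 CPM to 1.66, 8.57 and 3.47 CPM in batch 1, without overlap (−2.38 ± 1.27, adjusted p = 0.227). The batch 2 embryos had 10.9 and 37.3 CPM of Pkm, inside the 2-cell range. With DESeq2, Pkm passed in both, at −2.48 in intact (adjusted p = 0.0305) and −2.44 in separated embryos (adjusted p = 0.049), and over all 11 settings the adjusted p ran from 0.0305 to 0.286 and from 0.00528 to 0.595.

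Pgk1 (chrX:106187100-106203699, plus strand) had a count in all 5 intact 2-cell embryos, at 10.7, 10.7, 30.6, 9.88 and 4.27 CPM. It was at 1.81, 13.4, 0.245 and 0 CPM in intact 4-cell embryos, and embryo 3 lay inside the 2-cell range (−1.78 ± 1.84, adjusted p = 0.58). Separated 2-cell embryos had 9.06, 5.33, 0.0486, 0 and 7.34 CPM of Pgk1. The separated 4-cell embryos had 0.0724, 2.37 and 0 CPM in batch 1 and 18.1 and 12.2 CPM in batch 2 (batch 1 against 2-cell −2.41 ± 2.12, adjusted p = 0.509).

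Ldha, on chr7:46841475-46855627 (plus strand), was held by intact 4-cell embryos and nearly absent from separated embryos of batch 1. Intact 2-cell embryos had 0, 1.15, 0, 0 and 16.6 CPM, and intact 4-cell embryos 5.96, 10.8, 10.5 and 8.06 CPM. All 4 intact 4-cell embryos thus held Ldha, but 2-cell embryo 5 lay above them, and the difference was 1.32 ± 1.86 (edgeR adjusted p = 0.702; limma voom called it at 4.93, adjusted p = 0.0073). In separated 2-cell embryos there were 6 Ldha counts in all. In separated 4-cell embryos of batch 1 there was 1 count in 12 blastomeres, and in batch 2 the embryos had 7.28 and 4.25 CPM.

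Of the A and B subunit genes, Ldhb held most of the message in every embryo. Its share of Ldhb and Ldha per kb, without Ldhc, was 98.2 ± 3.96 percent in intact 2-cell embryos (n = 5), where embryo 5 had 91.1 percent and the others at least 99.8 percent. It was 88.0 ± 2.52 percent in intact 4-cell embryos (n = 4), at 87.8, 85.6, 87.2 and 91.6 percent, so that 1 4-cell embryo reached the lowest 2-cell embryo. In separated embryos the share was 99.99 ± 0.0121 percent at the 2-cell stage (n = 5), 99.98 ± 0.0431 percent at the 4-cell stage in batch 1 (n = 3), and 82.7 and 91.3 percent in the 2 embryos of batch 2. The third subunit gene, Ldhc, known from the testis, was at 29.4 ± 21.01 CPM in intact 2-cell and 4.87 ± 6.39 CPM in intact 4-cell embryos (adjusted p = 0.277), and at 25.8 ± 23.3 CPM in separated 2-cell embryos.

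**Figure D3:**
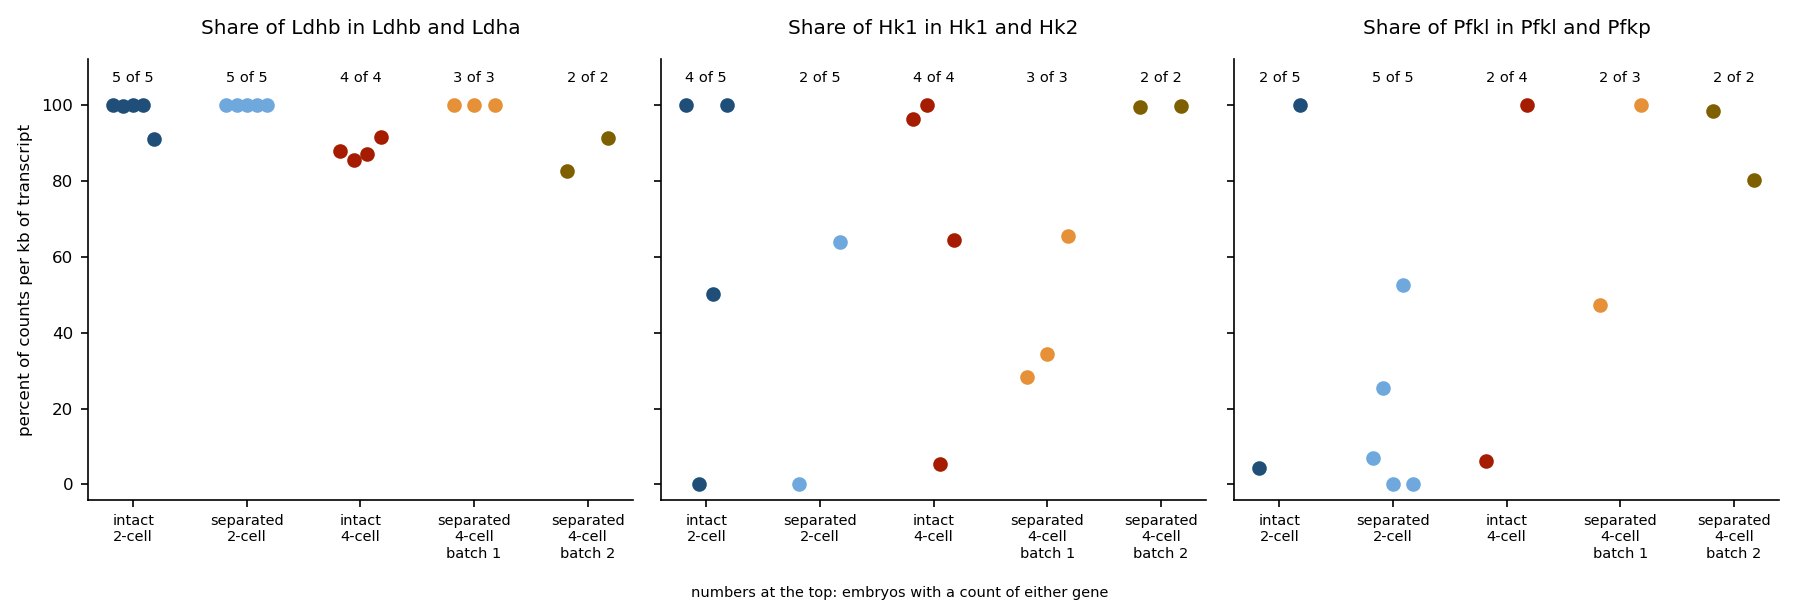
Share of 1 gene of a pair in the summed level per kb (y axis, percent) in each embryo with a count of either gene (points), by group (x axis). The Ldhb share lies between 82.7 and 100 percent in every embryo, whereas the Hk1 and Pfkl shares range from 0 to 100 percent. Some of the latter rest on very few counts. The Pfkl shares of 100 percent in intact 4-cell embryo 5 and 0 percent in separated 2-cell embryo 3 rest on 1 count each.

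None of the 10 genes passed the edgeR test between separated and intact embryos at either stage. At the 2-cell stage 0 of 10 passed and 2 had an unadjusted p under 0.05, beside 0.0142 percent of all genes called (2 genes, with 1481 at an unadjusted p under 0.05). At the 4-cell stage 0 of 10 passed and 1 had an unadjusted p under 0.05, beside 0 percent of all genes (844 at an unadjusted p under 0.05). DESeq2 called 493 and 379 genes in these 2 comparisons and limma voom 8 and 13. Ldhb differed by 0.29 ± 0.34 (SE) at the 2-cell stage and by 0.20 ± 0.41 at the 4-cell stage, separated over intact, both with adjusted p = 1. Fbp2 differed by 0.70 ± 1.04 at the 4-cell stage (adjusted p = 1), and no fold is given at the 2-cell stage, where neither group exceeded the limit of 3 counts.

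The tests differed for Ldha. It was lower in separated than in intact embryos at the 2-cell stage by the pooled counts of 6 against 135 reads (ratio 0.0105, counting interval 0.00377 to 0.0234), but 128 of those 135 came from intact embryo 5 (fitted −6.64 ± 2.22, edgeR adjusted p = 0.244). At the 4-cell stage 1 count in batch 1 stood against 128 in intact embryos (ratio 0.00271, interval 6.82e-05 to 0.0154; edgeR adjusted p = 0.801), and the embryo groups did not overlap. DESeq2 called it lower at both stages (adjusted p = 0.00999 and 0.0155) and limma voom at the 4-cell stage (adjusted p = 0.0207). No gene passed for the interaction of stage and separation with edgeR (0 percent, 1228 at an unadjusted p under 0.05, 523 with DESeq2 and 2 with limma voom). The interaction estimate of Ldhb was −0.09 ± 0.53. Fbp2 was the only gene of the set with an unadjusted p under 0.05 for the interaction (edgeR p = 0.00953, adjusted p = 0.417). Its estimate was 4.33 ± 1.47. The 2-cell groups behind that estimate held 2 Fbp2 counts in intact and 0 in separated embryos, so its size depends on the fit.

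Between the 2 batches of separated 4-cell embryos, 0 of the 10 genes passed with edgeR, beside 2.03 percent of all genes, and 1 had an unadjusted p under 0.05. That gene was Ldha (7.75 ± 3.12 higher in batch 2, adjusted p = 0.281), which DESeq2 (adjusted p = 0.0384) and limma voom (adjusted p = 0.000726) called. Depth moved with it: the batch 2 blastomeres had up to 31576263 counts and those of batch 1 at most 5232480. When every library was thinned to the lowest library total, 5 of 8 batch 2 blastomeres had at least 3 Ldha counts, and 0 of 12 in batch 1. Thinning evens out the totals but not RNA input or library preparation, which cannot be told apart from batch here. The summed level of the cumulus and granulosa markers was also higher in batch 2, as given above, but it came from Amhr2 and Tnfaip6. Inha, Inhba, Has2, Ptx3 and Nr5a1 had no count in batch 2. Amh, Fshr, Cyp19a1, Foxl2 and Star were at most 0.978 CPM in any embryo. The part of these markers in the Ldha difference was not tested.

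Within separated embryos, sister blastomeres of the 4-cell stage were closer in Ldhb than in Fbp2, which had no count at the 2-cell stage. At the 2-cell stage both sisters held Ldhb in 5 of 5 embryos, at 157 and 289, 212 and 330.2, 199 and 215, 150.1 and 127, and 328 and 227 CPM per library total. The SD between sisters, on the log2 CPM scale with a prior count of 2, was 0.392, and 6.96 percent of 6352 genes of mean CPM at least 10 had a smaller one. In batch 1 at the 4-cell stage it was 2.07, beside 2.34 for the median gene. There, blastomere 2 of embryo 2 held 1 Ldhb count and its sisters held 119 to 224. In batch 2 the Ldhb SD was 0.627, where the median of 6798 genes was 0.551.

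Fbp2 was uneven among the 4 sisters of an embryo. In embryo 2 of batch 1 they had 6.69, 19.1, 125 and 143 CPM. Embryo 3 had 0, 104, 0 and 42.2 CPM, and embryo 4 had 0, 47.8, 39.0 and 69.2 CPM. Thus 9 of 12 blastomeres held Fbp2, and only embryo 2 had it in all sisters. Blastomere 2 of embryo 2, nearly without Ldhb, held 66 Fbp2 counts. The SD between sisters was 3.96, and 95.6 percent of 5862 genes had a smaller one.

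All 8 batch 2 blastomeres held Fbp2, at 52.3, 67.6, 33.4 and 34.9 CPM in embryo 6 and at 25.5, 128, 5.05 and 44.6 CPM in embryo 7. The SD of 1.4 there was again above that of 91.1 percent of genes. Ldha in batch 2 ran from 0.701 to 32.5 CPM among the sisters of embryo 6 and from 0.103 to 13.8 CPM in embryo 7. Its SD was 2.42, and 98.1 percent of the genes of mean CPM at least 10 had a smaller one. The median Ldha level of these 8 blastomeres was 4.93 CPM, so that rank does not compare genes of like level.

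**Figure D4:**
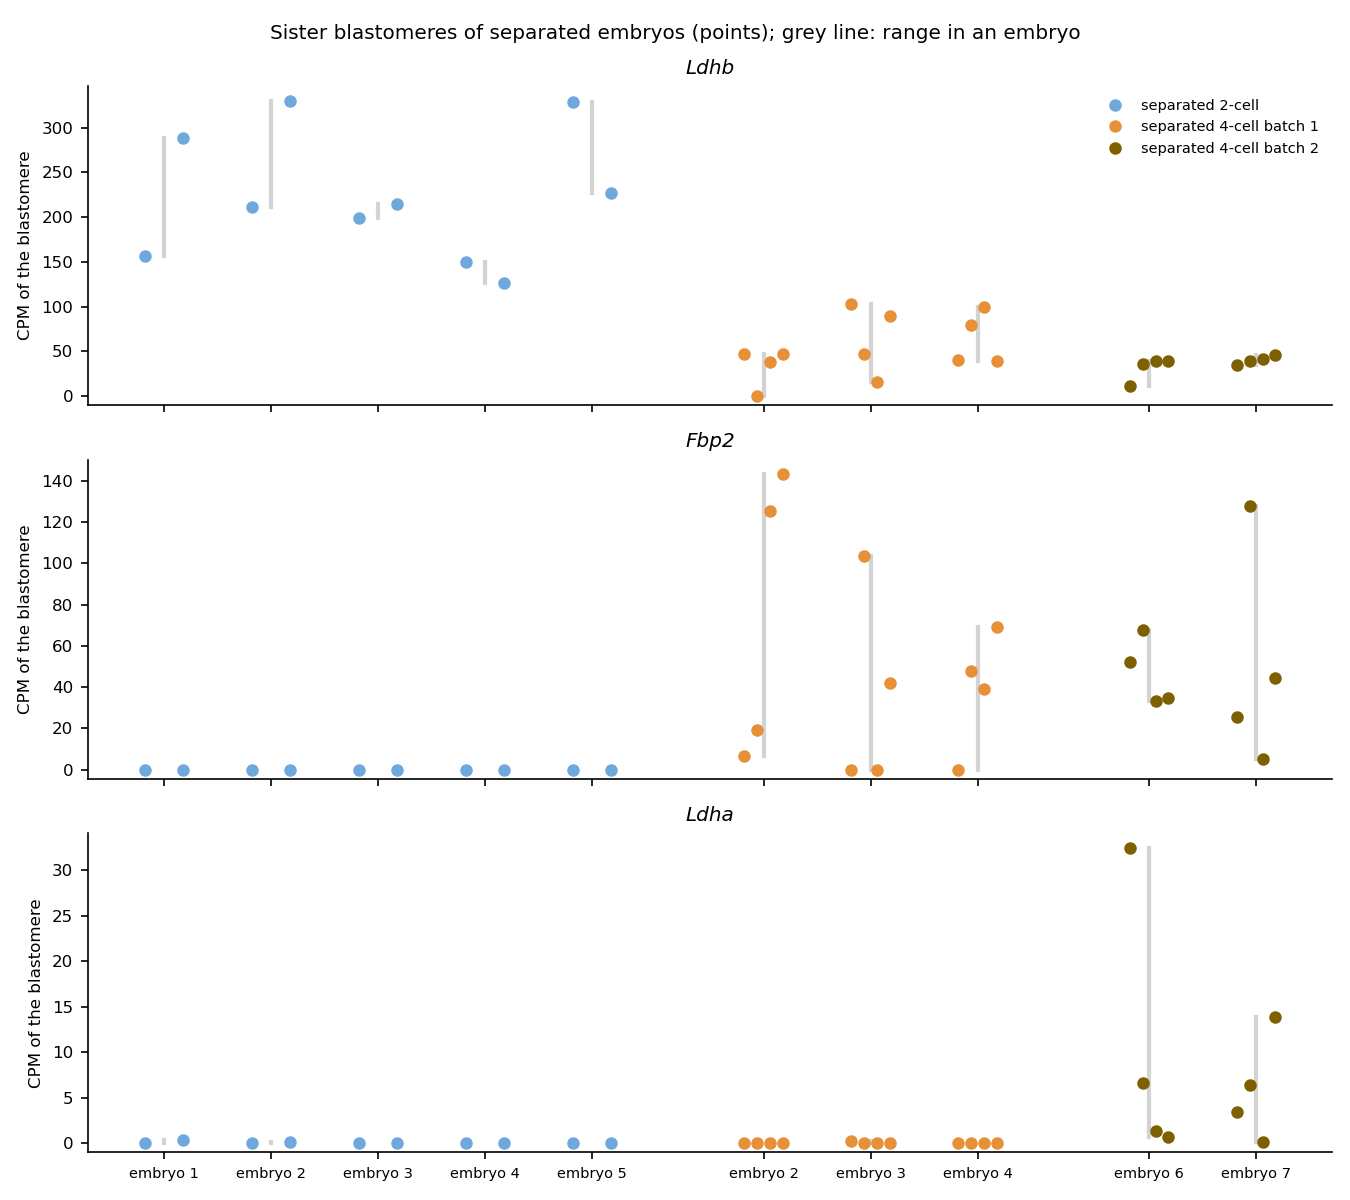
Level of Ldhb, Fbp2 and Ldha in each blastomere of the separated embryos (points, y axis in CPM per library total) by embryo (x axis), with a grey line over the range in an embryo. Fbp2 is absent from all 10 blastomeres of 2-cell embryos and lies between 0 and 143 CPM in 4-cell embryos.

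Hk1, Pkm and Pgk1 were each found in a minority of the 4-cell blastomeres of batch 1. Of 12 batch 1 blastomeres at the 4-cell stage, 4 held Hk1, 5 Pkm and 2 Pgk1, whereas all 8 blastomeres of batch 2 held each of these 3 genes. At the 2-cell stage Pkm was in all 10 blastomeres, but unevenly, as in embryo 1 with 20.4 and 0.623 CPM and embryo 4 with 12.2 and 0.329 CPM. Pgk1 was in 5 of these 10 blastomeres and Hk1 in 1. Over all 39 libraries, 38 had at least 3 counts of Ldhb, 31 of Pkm, 22 of Gpi1, 21 of Fbp2, 20 each of Hk1 and Pgk1, 16 of Ldha, 14 of Hk2, 13 of Pfkl and 10 of Pfkp.

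The rest of the pathway was described with lists of genes by role. Counts per list stand beside totals over the 14119 genes tested. In intact and separated embryos, 3955 and 3946 of these had an unadjusted p under 0.05 with edgeR. DESeq2 called 3047 and 3220, and limma voom 2844 and 2318. After adjustment, edgeR called 5.41 percent higher and 4.99 percent lower in intact embryos, and 6.4 and 4.7 percent in separated embryos. With so few genes per list, these counts are description only. Of 24 other glycolysis and lactate dehydrogenase genes (25 rows, as Aldoa has 2), 10 were tested, and in intact embryos 0 rose and 1 fell (median log2 fold change −0.58). The gene that fell was Bpgm, whose bisphosphoglycerate mutase branches from the lower pathway, from 167 ± 108 CPM (n = 5) to 12.02 ± 7.89 CPM (n = 4; log2 fold change −3.80 ± 0.75, adjusted p = 0.00321). In separated embryos Bpgm also fell, from 155 ± 61.1 to 6.39 ± 2.81 CPM (−4.60 ± 0.89, adjusted p = 0.0031), and 1 of the 10 rose (median −0.50). That was Pgam2, the muscle phosphoglycerate mutase gene, with no count at the 2-cell stage and 8.01 ± 7.10 CPM in batch 1 (n = 3, with 1 embryo at 0; adjusted p = 0.043), a call that limma voom did not make. In intact embryos Pgam2 was at 2.28 ± 4.74 CPM at the 2-cell and 1.28 ± 2.56 CPM at the 4-cell stage (−0.82 ± 2.40, adjusted p = 0.871). Gapdh had 6.62 ± 5.13 CPM in intact 2-cell and 2.13 ± 1.45 CPM in intact 4-cell embryos (adjusted p = 0.576), and Pgam1 0.898 ± 1.24 and 4.02 ± 3.49 CPM (adjusted p = 0.497).

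Among genes that bring pyruvate into mitochondrial oxidation, 2 of 11 rose and 0 fell in intact embryos (median −0.31; DESeq2 called 2 and limma voom 1), beside 5.41 percent of all genes higher, and 0 of 11 passed in separated embryos (median 0.10; 2 at an unadjusted p under 0.05, DESeq2 1 and limma voom 0). Dld, the dihydrolipoamide dehydrogenase shared by the pyruvate dehydrogenase complex, went from 3.31 ± 3.63 to 52.5 ± 46.4 CPM (3.98 ± 1.21, adjusted p = 0.0422). Pdp2, a phosphatase that activates the complex, went from 40.5 ± 25.5 to 144 ± 65.7 CPM (1.83 ± 0.51, adjusted p = 0.028). In separated embryos Pdp2 was at 45.1 ± 18.1 and 136 ± 41.9 CPM (1.59 ± 0.54, adjusted p = 0.0612). Dld was at 25.1 ± 24.8 and 57.8 ± 18.2 CPM there (1.205 ± 1.187, adjusted p = 0.568). Pdhb, a subunit of the complex, was at 66.9 ± 28.6 and 114 ± 27.4 CPM in intact embryos (adjusted p = 0.224), and the kinase gene Pdk3 at 14.1 ± 18.9 and 2.48 ± 4.31 CPM (adjusted p = 0.49).

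Of 7 glucose and monocarboxylate transport genes tested, 0 passed at either comparison of stages with edgeR (medians 0.80 in intact and −0.80 in separated embryos). At an unadjusted p under 0.05 there were 2 and 0, DESeq2 called 2 and 0, and limma voom 0 and 1. The carrier gene Slc16a6 was at 31.1 ± 7.83 CPM in intact 2-cell and 80.2 ± 14.2 CPM in intact 4-cell embryos (adjusted p = 0.05, not under the threshold as computed), and Emb, the accessory protein of monocarboxylate carriers, at 10.4 ± 3.56 and 30.4 ± 17.0 CPM (adjusted p = 0.104). Slc16a1, a lactate and pyruvate carrier, was at 16.1 ± 12.2 and 25.5 ± 18.6 CPM (adjusted p = 0.685). In separated embryos Bsg, the other accessory protein, was at 4.94 ± 6.92 and 23.3 ± 5.66 CPM (adjusted p = 0.49), and the glucose carrier gene Slc2a4 at 0.174 ± 0.358 CPM and no count (adjusted p = 0.302). Emb had the other sign there, with 52.9 ± 23.6 and, in batch 1, 22.9 ± 6.77 CPM (−1.21 ± 0.69, adjusted p = 0.265). Bsg had the other sign in intact embryos, with 6.23 ± 9.45 and 4.38 ± 1.40 CPM (−0.51 ± 1.80, adjusted p = 0.895). Of the gluconeogenesis list 2 genes were tested and 0 passed with edgeR (1 at an unadjusted p under 0.05, and 1 called by DESeq2 and 1 by limma voom, in intact embryos): Pcx at 19.7 ± 24.2 and 3.23 ± 2.82 CPM (adjusted p = 0.16) and Pck2 at 0.0588 ± 0.0814 and 1.08 ± 0.634 CPM (adjusted p = 0.185) in intact embryos. Fbp1, the liver counterpart of Fbp2, had no count in intact embryos of either stage and averaged 7.04 CPM in separated 2-cell embryos.

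Of 12 regulators of glycolytic flux tested, 0 passed (medians 1.12 in intact and −1.38 in separated embryos, or −1.18 with 2 genes that lack counts in a group set to their limit; 1 and 2 at an unadjusted p under 0.05, DESeq2 0 and 3 called, limma voom 1 and 2). Tigar, a fructose bisphosphatase-like regulator, was at 128 ± 67.5 and 303 ± 155 CPM in intact embryos (adjusted p = 0.0886). In intact embryos the glucose-responsive transcription factor gene Mlxipl had adjusted p = 0.182 and Arnt, a partner of hypoxia-inducible factors, adjusted p = 0.21. In separated embryos Prkaa2, a catalytic subunit of AMP-activated kinase, was at 12.6 ± 9.76 CPM and 1 count (adjusted p = 0.0616), Gckr had adjusted p = 0.0848 and Pfkfb1 adjusted p = 0.21. Prkaa2 had the other sign in intact embryos, with 1.54 ± 2.15 and 4.05 ± 2.71 CPM (1.39 ± 1.77, adjusted p = 0.666).

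In the pentose phosphate pathway 0 of 8 genes passed with edgeR in intact embryos (median 1.01; 2 at an unadjusted p under 0.05, DESeq2 1 and limma voom 2) and 1 of 8 rose in separated embryos (median 0.85). That was the transketolase gene Tkt, with no count at the 2-cell stage, 1.47 ± 1.69 CPM in batch 1 (n = 3) and 27.8 and 36.8 CPM in batch 2 (adjusted p = 0.0483), a call lost with DESeq2 size factors and with limma voom. Pgd was at 7.58 ± 7.72 and 54.8 ± 9.39 CPM in intact embryos (adjusted p = 0.0909), Tktl1 at 53.6 ± 46.4 and 8.91 ± 8.14 CPM (adjusted p = 0.192), and Pgls had no count in intact 2-cell embryos and 11 counts at the 4-cell stage (adjusted p = 0.106). Of 12 glycogen and hexose phosphate genes, 0 passed with edgeR in intact (median 0.91; 3 at an unadjusted p under 0.05, DESeq2 2 and limma voom 2) and 1 fell in separated embryos (median 0.61). It was Gyg, the glycogenin primer of glycogen, from 73.0 ± 33.5 to 6.41 ± 8.58 CPM (−3.51 ± 0.85, adjusted p = 0.0135). In intact embryos Gyg was at 73.9 ± 11.3 and 23.7 ± 12.2 CPM (−1.64 ± 0.69, adjusted p = 0.124), Gfpt1 at 59.3 ± 14.03 and 109 ± 25.1 CPM (adjusted p = 0.151), and Pygl had no count and then 39 counts (adjusted p = 0.0596).

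Genes with the most similar course over the 19 embryos were sought among 6631 genes of mean CPM at least 10 by Pearson's r of log2 CPM, as a description, since the embryos share stage and library type. For Ldhb these were Gm3143 (r = 0.974) and Gm28645 (r = 0.958). Gm3143 went from 653 ± 354 CPM in intact 2-cell to 33.0 ± 15.2 CPM in intact 4-cell embryos. For Fbp2 they were Tmem37 (r = 0.986) and the histone gene H2ac4 (r = 0.983), and Tmem37 went from 0.0329 ± 0.0735 to 37.0 ± 31.4 CPM. The closest genes had r = 0.882 for Hk1 (Tbc1d9), 0.867 for Pkm (Abi1), 0.806 for Gpi1 (Rmc1), 0.778 for Hk2 (Gm45477), 0.767 for Ldha (Farsa), 0.755 for Pgk1 (Pdik1l), 0.753 for Pfkl (Tsix) and 0.652 for Pfkp (Abhd18). The second closest were Flvcr2 (0.88), Mllt11 (0.864), Tor1b (0.793), Gm49909 (0.73), Fem1b (0.72), Tbrg4 (0.752), Eif5a (0.704) and Trap1a (0.621), in the same order. Among the 10 genes themselves r was −0.906 for Ldhb and Fbp2 over the 19 embryos, 0.725 for Hk1 and Fbp2 and 0.549 for Pgk1 and Pkm.

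Some of these genes share sequence with copies, which the counting could split in a way that is not given in the sources used here. Of the 50-base stretches of the longest coding transcript, 67.96 percent for Pgk1, 34.41 percent for Pkm, 27.01 percent for Ldhb, 25.26 percent for Gpi1 and 16.65 percent for Ldha also occur in another GENCODE gene. The copies Pgk1-rs7 and Gm5537 had 0 counts beside 5081 of Pgk1, and Gm6560 had 13 beside 11017 of Pkm. The Ldhb copy Gm5514 and the Gpi1 copy Gm1840 were not analysed here. Fbp2 and Hk2 share no such stretch. The strandedness of the counting is not given in the sources used here. Pfkp (792 counts) and Pitrm1 (8576 counts) overlap on opposite strands and share 17.07 percent of the Pfkp stretches. Reads of that shared part therefore cannot be told apart. The same holds for Hk1 and Hk1os (351 counts), which share 2.554 percent of the Hk1 stretches. The levels of Pfkp, Pgk1, Pkm, Ldhb, Gpi1, Ldha and Hk1 are uncertain to that extent.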

How the data were processed

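Expression was measured by Smart-seq2 in 39 libraries of 19 embryos. The authors deposited expected counts per gene, and per the submitters' processing notes the tools named are Trim Galore 0.6.10, STAR 2.7.3a and RSEM 1.2.28 with build GRCm38. The annotation and strandedness are not given in the sources used here. Of non-zero values 12.6 percent were not whole, and all were rounded, then summed per embryo.

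The main test was edgeR 4.0.16 (quasi-likelihood, TMM, filterByExpr, 14119 genes, R 4.3.3) on the 4 groups with a batch term, with Benjamini-Hochberg adjustment at 0.05; each SE was taken as the absolute log2 fold change divided by the root of its F statistic. Limma 3.58.1 and DESeq2 1.42.0 served as alternatives, with other filters, scalings, blocks and left-out embryos. The script was tested on simulated data. Levels per kb use the longest GENCODE coding transcript. Embryo levels are TMM-scaled; single-library levels are per total count, which was 2019179 to 44048051. Likeness used genes of mean CPM at least 10.

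The 10 genes and all lists were chosen with earlier results of these data known. The text names each of the 10 genes, up to 3 genes per list with the smallest p in either stage comparison, and the 2 most alike genes; Gapdh, Pgam1, Fbp1, Pfkm and other genes given for background were added by role. Library sizes, markers and depth limit precision as stated with each value.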

Additional observations from a re-analysis of the deposited data

Results flagged for a closer look

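Within groups of 4 or 5 embryos, the highest embryo stood apart from the next (Dixon's test at 95%) in 13 of 39 groups tested. The nominal rate of 1 in 20 holds for normally distributed values. Many of these CPM values are 0, so 13 of 39 cannot be read against that rate. Both batches of separated 4-cell embryos were taken as 1 group here. The values below belong to low genes in which the other embryos of the group were near 0, or to single high embryos. Separated 2-cell embryo 5 had 1.752 CPM of Hk1 (next 0), 1.28 CPM of Hk2 (next 0.0508) and 6.064 CPM of Pfkp (next 0.892). Intact 4-cell embryo 4 had 73.6 CPM of Hk2 (next 2.44) and 8.314 CPM of Pfkp (next 0). Intact 2-cell embryo 4 had 1.136 CPM of Pfkl (next 0.329), and separated 2-cell embryo 2 had 0.2746 CPM (next 0.0508). Intact 2-cell embryo 2 had 8.222 CPM of Pfkp (next 0). For Pgk1, intact 2-cell embryo 3 had 30.62 CPM (next 10.7) and intact 4-cell embryo 3 had 13.39 CPM (next 1.81). For Pkm, separated 2-cell embryo 2 had 55.83 CPM (next 21.4) and separated 4-cell embryo 7, of batch 2, had 37.32 CPM (next 10.9). Intact 2-cell embryo 5 had 16.55 CPM of Ldha (next 1.15). No embryo stood apart in this way in Ldhb or Fbp2.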

How the results depend on the processing

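Fbp2 rose and Ldhb fell between stages under all 11 alternative settings, except that Ldhb in intact embryos did not pass with each blastomere as a library (-2.25). The number of the 10 genes called in intact embryos became 3 higher (limma voom) and 2 lower (DESeq2, limma voom) or 0 lower (each blastomere), and in separated embryos 2 higher (replicate block), 3 higher (each blastomere) and 2 lower (DESeq2, each blastomere). With 1 embryo left out, between 1 and 3 were higher in separated embryos. Separation gave 1 lower gene, Ldha, at the 2-cell stage (DESeq2) and 1 at the 4-cell stage (DESeq2, limma voom). Between batches there were 1 (DESeq2), 2 (limma voom) and 5 higher and 1 lower (each blastomere).

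The sign of uncalled differences turned in these cases, and the cause was not tested. In intact embryos Pfkl was 0.547 with limma voom, 0.935 with the replicate block and 0.338 by blastomere, and Pfkp was -0.22 after thinning. In separated embryos Gpi1 was 1.63 with limma voom. Pfkp was -1.88 with limma voom, -6.23 with the replicate block and -0.746 by blastomere. Pgk1 was 0.594 with no batch term. Ldha was 0.431 with limma voom, 6.04 with no batch term, 0.564 with the replicate block, 0 after thinning and 1.16 by blastomere. Between separated and intact 4-cell embryos, Ldhb was -0.106 with no batch term and -0.434 by blastomere, and Fbp2 -1.26 by blastomere. The Ldhb interaction was 0.0036 with DESeq2 size factors, 0.0031 with DESeq2 and 0.128 without batch 2.

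Leaving out 1 embryo moved Hk2 in intact embryos between -0.398 and 5.06 and Pfkp between -8.41 and 8.87. In separated embryos it moved Gpi1 between -0.768 and 1.21, Pfkp between -8.42 and 3.09 and Ldha between -2.83 and 0.154, and it moved the Ldhb interaction between -0.375 and 0.144. Over all genes, calls in intact and separated embryos went from 1469 and 1568 to 3047 and 3220 with DESeq2, 2844 and 2318 with limma voom, 715 and 3869 by blastomere, and 737 and 711 with the replicate block. Embryos with the same replicate number were not alike: over 21 same-numbered pairs, r ran from -0.0743 to 0.0459. Of 12 embryos, 0 were most alike to their own number. Low r between single embryos cannot tell whether same-numbered embryos shared an origin, which the labels do not give. With size factors from DESeq2, the median over all genes was -0.13 in intact and -0.21 in separated embryos. The intact 4-cell libraries are the shallowest of the embryo totals, so low genes are least certain there.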
